A study of Homo sapiens with 12 samples.

Results

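RNA carried by ribosomes was compared with total input RNA in HEK293T, an established line derived from human embryonic kidney, by setting the ribosome-bound fractions of a sucrose gradient against the input of the same treatment. All 12 of the 12 libraries entered: 9 ribosome-bound libraries and 3 inputs. The bound libraries came from the gradient fractions of 1 ribosome, of 2, and of at least 3 (below, 3 or more ribosomes), and each of these and the input was made once from cells given a PRMT1 inhibitor, once from cells given a PRMT4 inhibitor and once from cells given DMSO, the solvent. All cells were of the same line, the 2 inhibitors were the only agents beside DMSO, and no source used here names the compounds, doses or times. Within each treatment the mean of log2(FPKM + 1) over the 3 bound libraries was taken minus log2(FPKM + 1) of the input, and each set of differences was centred on its median. FPKM, the deposited unit, is the number of sequenced fragments scaled to transcript length and library size. The 3 treatments served as replicates, so the spread below includes any effect of the inhibitors. A gene was tested when its FPKM averaged 10 or more across all 12 columns, which left 4057 of 15534 in the table. As 9 of those columns are bound libraries, a gene low in the inputs passes more readily than a gene low when bound.

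Ribosomes load onto an mRNA one after another, so mRNAs that are translated often sediment deep in a sucrose gradient, while mRNAs that are stored, newly made or held in the nucleus stay in the total pool. The mRNAs of ribosomal proteins and translation factors begin with a tract of pyrimidines, the terminal oligopyrimidine (TOP) motif, through which growth signals switch their translation on and off. The mRNAs made inside mitochondria are read by mitochondrial ribosomes, which have no part in cytosolic polysomes. PRMT1 and PRMT4 (also called CARM1) are enzymes that methylate arginines, many of them in proteins that bind RNA.

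The inputs set several limits. FPKM over all genes added up to 201967 for the input of DMSO, against 329897 to 425444 for any other library, and the median difference removed by centring was -0.00 with the PRMT1 inhibitor, 0.05 with the PRMT4 inhibitor and 0.91 in DMSO (log2). From the steps between low values, the libraries held an estimated 413200 to 584400 fragments, so a gene with 2 kb of transcript at 10 FPKM rested on 8.26 to 11.7 fragments. Of the tested genes with an annotation, 61.6% overlap an exon that another gene has on the other strand. SH3D19 averaged 24891 FPKM, while RPS3A, the ribosomal protein gene on the strand opposite to it, averaged 68.0. MFSD11 likewise averaged 8081 FPKM and its opposite-strand partner SRSF2 66.2. The library kit was directional, but whether and how the counting used strand was not given. A value listed under a gene may therefore hold fragments from the other strand, in part or mainly. This limit holds for every FPKM value below, also for genes with no exon on the opposite strand, and was not tested. Of 9 markers listed for HEK293T cells 8 were in the table, with summed FPKM of 688 to 2244 in the bound libraries and 763 to 1960 in the inputs. Of 17 markers of other cell types 8 were in the table, with sums of 190 to 587 in the bound libraries and 113 to 342 in the inputs, GFAP, which lies opposite CCDC103, among them at a level of 153 FPKM. COL1A1 and COL3A1 were under 1 FPKM, as was PAX2 among the HEK293T markers.

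The first question was which genes lay on the same side in all 3 treatments. No gene passed limma's test with Benjamini-Hochberg adjustment at 0.05 (0% called higher and 0% called lower with ribosomes). The smallest adjusted p was 0.0872, for COX7C, a small subunit of cytochrome c oxidase, the last enzyme of the respiratory chain. COX7C was listed at 10.9 to 181 FPKM in the bound libraries (median 89.0), against 10.4, 0 and 0 FPKM in the PRMT1 inhibitor, PRMT4 inhibitor and DMSO inputs. All 9 bound libraries were above all 3 inputs, but the 2 inputs at 0 make the size of that difference uncertain. At an unadjusted p under 0.05 there were 150 genes higher with ribosomes in all 3 treatments (3.7% of genes tested) and 123 lower (3.03%).

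By direction alone, 548 genes lay above the median in all 3 treatments (13.5%) and 631 below it (15.6%), with 50% above it in any single treatment by construction. A distance of at least 1.5-fold in every treatment was met by 102 genes above (2.51%) and 120 below (2.96%). On listed FPKM, without centring, all 9 bound libraries exceeded all 3 inputs for 74 genes (1.82%) and lay below all of them for 17 (0.419%). The DMSO input is low throughout (0.91 log2 removed by centring), so lying below all inputs is harder than lying above them. Those 2 counts are therefore not comparable, and remarks on overlap below carry the same limit. The differences with the PRMT1 inhibitor and in DMSO resembled each other over the 4057 genes (Pearson r = 0.42, Spearman rho = 0.47, 68.0% on the same side). Those with the PRMT4 inhibitor resembled neither DMSO (r = -0.07, rho = -0.11) nor the PRMT1 inhibitor (r = -0.08, rho = -0.14). Genes are not independent replicates, and these values describe the libraries only. In such bulk libraries fewer cells holding an RNA and less of it per cell cannot be told apart.

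Ribosomal protein genes lay toward the ribosome-bound fractions in all 3 treatments. Of the 46 tested genes of the large subunit 22 lay above the median in every treatment and 0 below it, and of the 33 of the small subunit 20 lay above and 0 below. That is 47.8% and 60.6%, against 13.5% of all genes. None of the 79 passed limma's adjusted threshold, and 13 and 17 of them lay higher at an unadjusted p under 0.05, against 3.7% of all genes. The median difference of the large subunit was 0.69 with the PRMT1 inhibitor, 0.69 with the PRMT4 inhibitor and 0.78 in DMSO (log2), and the median of the genes' means was 0.84. For the small subunit the medians were 0.58, 0.84 and 1.19, and that of the genes' means was 1.03. Over all genes tested the median of the genes' means was 0.07. For 14 of the 79 genes all 9 bound libraries were above all 3 inputs (1.82% of all genes).

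**Figure D1:**
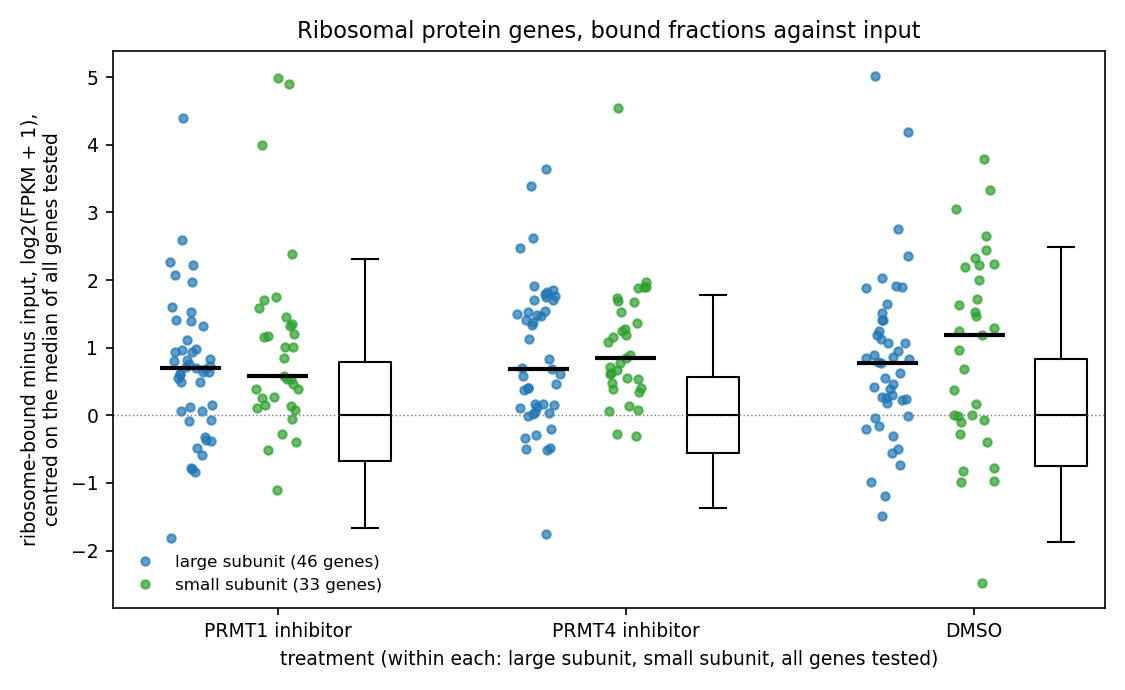
Centred difference between bound fractions and input (vertical axis, log2(FPKM + 1)) for each ribosomal protein gene in the 3 treatments; points are genes, thick bars are medians, and boxes show all genes tested (quartiles, with whiskers at the 5th and 95th percentiles). The medians of both subunits lie between 0.58 and 1.19, above the median of all genes at 0 in every treatment, while single genes spread over several log2 units.

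RPS21 (ENSG00000171858), a small-subunit protein, was listed at 313, 218 and 97.5 FPKM with 1, 2 and 3 or more ribosomes under the PRMT1 inhibitor, against 35.2 FPKM in its input. Under the PRMT4 inhibitor RPS21 was at 129, 201 and 87.9 FPKM, against 37.4 FPKM in the input, and in DMSO at 62.5, 117 and 95.8 FPKM, against 9.43 FPKM. No bound library overlapped an input, and the centred differences were 2.39, 1.73 and 2.20 (mean 2.11, SE 0.38, limma adjusted p = 0.539). RPS3 (ENSG00000149273), which sits at the entry of the mRNA channel, ranged from 40.9 to 197 FPKM over the 9 bound libraries (median 76.4), against 36.7, 18.2 and 6.57 FPKM in the PRMT1 inhibitor, PRMT4 inhibitor and DMSO inputs. RPS3 did not overlap between bound libraries and inputs either, with a mean difference of 1.93 (SE 0.43).

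RPL26 (ENSG00000161970), of the large subunit, ranged from 39.6 to 144 FPKM when bound (median 89.6), against 24.4, 23.9 and 14.7 FPKM in the 3 inputs. Its difference was even across treatments, at 2.07, 1.53 and 1.51. RPL14 (ENSG00000188846) was less even, at 0.73, 3.64 and 1.90: its bound libraries ranged from 8.64 to 88.4 FPKM (median 16.9), against 15.1, 0.85 and 2.88 FPKM in the inputs. The bound libraries of RPL14 overlapped the PRMT1 inhibitor input, and 5 of 9 lay above the highest input. These 4 are the ribosomal protein genes among the 12 highest named genes, all without an exon on the opposite strand.

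The ribosomal protein genes with the highest levels lay on both sides of the medians of their subunits. RPL13 ranged from 566 to 840 FPKM in the bound libraries (median 615), against 422, 169 and 299 FPKM in the PRMT1 inhibitor, PRMT4 inhibitor and DMSO inputs. All 9 were above all 3 inputs, with centred differences of 0.61, 1.91 and 0.19 (mean 0.90). RPS15 was also free of overlap, at 285 to 571 FPKM when bound (median 379), against 207, 88.2 and 149 FPKM in the inputs, and so was RPS13, at 155 to 367 FPKM (median 252), against 104, 132 and 70.0 FPKM. The mean differences were 1.16 for RPS15 (SE 0.39) and 0.98 for RPS13 (SE 0.36). RPL35, which lies opposite WDR38, was at 124.7 to 837 FPKM when bound, against 302, 54.1 and 67.4 FPKM, with overlap and a mean difference of 1.48 (SE 0.37). RPL10 (opposite DNASE1L1) and RACK1 (opposite CTC-338M12.4), a signalling scaffold on the small subunit, had differences of 0.50 (SE 0.34) and 0.46 (SE 0.33), each above 0 in all 3 treatments and each with 6 of 9 bound libraries above the highest input.

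Not all ribosomal proteins did so. The means ran from 3.03 in RPS25 to -0.41 in RPL28, both named after their values were seen, and 71 of 79 were above 0. RPS25 was listed at 0 in 2 inputs. The 47 genes with no exon on the opposite strand had a median of 0.90 and the 32 with one 0.82. The 17 tested genes that lie opposite a ribosomal protein gene, a group added after the data were seen, had a median of -0.07. Of these 1 lay above (LIAS) and 2 below (DIPK1A and RNF207) in all 3 treatments. Neither count exceeded the share of all genes, 13.5% above and 15.6% below. SH3D19, by far the most abundant of the 17, had differences of 1.17, -0.11 and 1.90, beside 1.71, 0.14 and 3.06 for RPS3A.

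The start of these transcripts holds the pyrimidine tract for which the class is known. Windows of 30 bases around the RefSeq start (15 bases before and 15 from the start, GRCh38.p14) are shown for some of the ribosomal protein genes just described. For contrast, windows of genes at either end of the ranking are shown too. Capitals mark the run of C and T that touches any base from 3 before the start to the 6th base of the transcript.

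RPS21 (chr20:62387088-62387117, plus strand): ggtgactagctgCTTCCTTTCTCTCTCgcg
RPS3 (chr11:75399503-75399532, plus strand): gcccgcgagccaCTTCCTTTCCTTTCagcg
RPL26 (chr17:8383179-8383208, minus strand): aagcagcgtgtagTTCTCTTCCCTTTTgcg
RPL14 (chr3:40457324-40457353, plus strand): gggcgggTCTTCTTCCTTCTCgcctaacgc
RPL35 (chr9:124861943-124861972, minus strand): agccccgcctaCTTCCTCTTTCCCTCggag
RACK1 (chr5:181243892-181243921, minus strand): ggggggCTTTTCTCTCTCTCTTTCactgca
RPL13 (chr16:89560642-89560671, plus strand): ggccctgctatcaTCCCagagtgcattgcg
RPS15 (chr19:1438381-1438410, plus strand): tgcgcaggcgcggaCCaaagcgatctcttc
UQCRH (chr1:46303683-46303712, plus strand): tgacccttacaagTCCTTCTTgatcctgaa
PFAS (chr17:8249274-8249303, plus strand): cgcggatgacgtaacaaacgCgcgcgacga
SF3B4 (chr1:149927789-149927818, minus strand): agtcgtgctgaggTCagaaggcggaaccgc
KDM6B (chr17:7834202-7834231, plus strand): agcgggggtgcgggtgTTTgtgttggaaaa
KEAP1 (chr19:10503342-10503371, minus strand): ccctctccccgCCTCCTTTTCgggcgtccc

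A run of at least 8 pyrimidines on the transcribed strand was present for 48 of the 64 ribosomal protein genes with a RefSeq promoter (75%), against 12.5% of tested genes with one and 10.3% of all 27305 promoters in the table. The run was 15 bases in RPS21, 14 in RPS3, RPL26 and RPL14, 15 in RPL35 and 18 in RACK1, but 4 in RPL13 and 2 in RPS15. In RPL10 and RPS13, whose windows are not shown, it was 5 and 10 bases. Among ribosomal protein genes the median difference was 0.98 with the run and 0.82 without it. Among the other genes tested the run went with little: the median was 0.09 over 346 genes with it and 0.05 over 2754 without it. The share above the median in all 3 treatments was 17.1% with the run and 12.3% without it. The annotated start need not be the one used in these cells.

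The other translation factors were less uniform. Of 17 elongation factors and other TOP mRNAs 4 lay above the median in all 3 treatments (COX7C, HNRNPA1, TPT1 and EEF1G; 23.5%, against 13.5% of all genes) and 1 below (5.88%, against 15.6%), with medians of 0.36, 0.04 and 0.84 in the PRMT1 inhibitor, PRMT4 inhibitor and DMSO comparisons. EEF2, which moves the ribosome along the mRNA, had differences of 0.41, 1.87 and -0.24. EEF1D, a subunit of the factor that recharges elongation factor 1, was the 1 below, at -0.89, -0.01 and -1.03, and lies opposite an unnamed gene. VIM, an intermediate filament gene on the list of TOP mRNAs, lies opposite VIM-AS1 and was at -0.05, 0.78 and 0.69. Its pyrimidine run at the RefSeq start was only 3 bases. Of 19 translation initiation factors 3 lay above (EIF4G2, EIF4H and EIF5; 15.8%, near the 13.5% of all genes) and 0 below, with medians of 0.60, 0.03 and 0.87. EIF4G2, a relative of the initiation scaffold eIF4G that lies opposite CTR9, was at 1.22, 0.15 and 2.11. EIF5A and EIF4E2 had mean differences of 0.08 and -0.04 (SE 0.39 each).

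**Figure D2:**
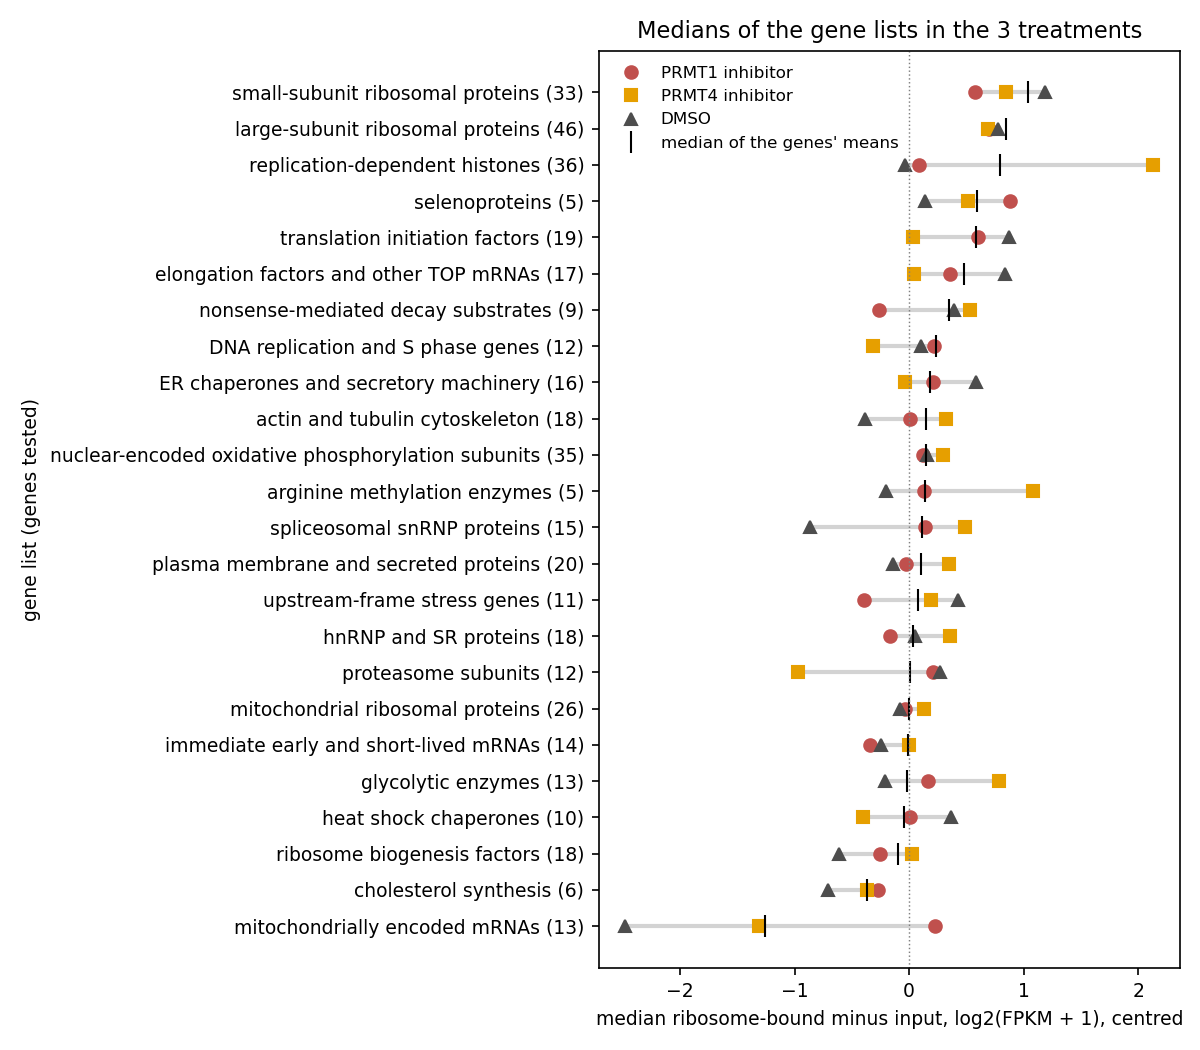
Median centred difference (horizontal axis, log2(FPKM + 1)) of each gene list with at least 5 genes tested, per treatment, with black ticks for the median of the genes' means and numbers of genes in parentheses. Both ribosomal subunits stand at the top. The 3 treatments lie close together for the large subunit (0.69 to 0.78) and less so for the small subunit (0.58 to 1.19). Histones and mitochondrially encoded mRNAs spread by more than 2 log2 units between treatments.

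The 12 genes at each end of the ranking had an effect of at least 1.5-fold in each treatment, values above 0 in all 12 libraries and no opposite-strand exon, and 41 genes met these conditions above the median and 39 below it. All are given as values, since none passed limma's adjusted test, and 8 of the 12 highest are not ribosomal proteins. The 12th highest was ENSA at 1.55, with RND2 next outside at 1.51. The 12th lowest was KEAP1 at -1.47, with RHBDF1 next outside at -1.44.

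PFAS (ENSG00000178921), an enzyme of purine synthesis, ranged from 1.52 to 31.1 FPKM in the bound libraries (median 21.1), against 1.12, 5.03 and 0.74 FPKM in the PRMT1 inhibitor, PRMT4 inhibitor and DMSO inputs. Its value of 1.52 FPKM with 3 or more ribosomes under the PRMT1 inhibitor overlapped the inputs, and the centred differences were 2.51, 1.57 and 2.38. IMPDH1, which makes guanine nucleotides, ranged from 3.52 to 26.0 FPKM when bound (median 11.04), against 5.79, 0.92 and 0.79 FPKM, with differences of 1.13, 2.71 and 1.92. Both were above the median in every treatment, IMPDH1 by most with the PRMT4 inhibitor and PFAS by least.

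ODC1, which starts polyamine synthesis, ranged from 30.6 to 144 FPKM when bound (median 96.3), against 66.5, 10.9 and 4.6 FPKM in the inputs. The bound libraries overlapped the PRMT1 inhibitor input only, and the differences were 0.77, 2.16 and 3.22. OAZ1, the antizyme that targets ODC1 for degradation and the gene with the highest level on the list of stress genes with upstream or shifted reading frames, was at 94.5 to 201 FPKM when bound (median 148), against 66.4, 27.6 and 63.1 FPKM. For OAZ1, which lies opposite JSRP1, no bound library overlapped an input, and the mean difference was 1.22 (SE 0.42). On that list 4 of 11 genes lay above the median in all 3 treatments (ODC1, OAZ1, IFRD1 and EIF5; 36.4%, against 13.5% of all genes) and 1 below (9.09%, against 15.6%), DDIT3, a transcription factor of the stress response, at -1.33. The median of the list was 0.07, with -0.40 in the PRMT1 inhibitor comparison, 0.19 with the PRMT4 inhibitor and 0.43 in DMSO. List members outside the 3 of highest level are named here and below because they make up a small count, so after their values were seen.

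UQCRH, a small subunit of respiratory complex III, ranged from 20.4 to 92.3 FPKM when bound (median 39.7), against 5.03, 12.95 and 4.05 FPKM in the inputs, with no overlap and differences of 3.06, 1.51 and 1.88. BMI1, a Polycomb repressor, SLC25A39, a carrier of the mitochondrial inner membrane, and ENSA, an inhibitor of a mitotic phosphatase, were also free of overlap, with mean differences of 1.90, 1.72 and 1.55 (SE 0.49, 0.60 and 0.51). The difference of SLC25A39 came mostly from the PRMT4 inhibitor, at 3.52, beside 0.86 with the PRMT1 inhibitor and 0.79 in DMSO. FBRSL1 had a mean of 1.86 (SE 0.65), with 8 of 9 bound libraries above the highest input.

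**Figure D3:**
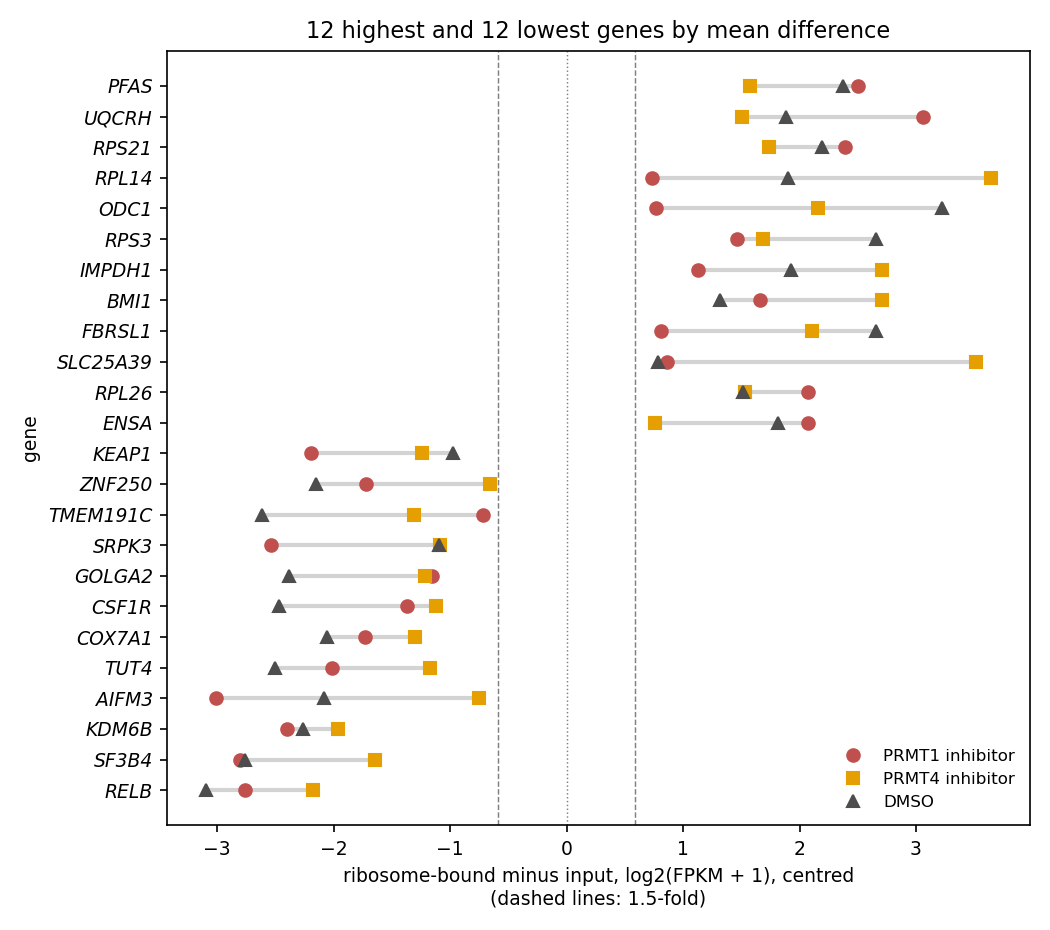
Centred difference of the 12 highest and 12 lowest named genes (horizontal axis, log2(FPKM + 1); one symbol per treatment, dashed lines at 1.5-fold). Every symbol lies outside the dashed lines because the choice of genes required it; the spread within a row runs from tight, as in KDM6B, to wide, as in RPL14.

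The lowest of the ranking was RELB. RELB (ENSG00000104856), a subunit of NF-kB, ranged from 0.78 to 29.5 FPKM in the bound libraries (median 5.79), against 63.6, 28.9 and 30.1 FPKM in the PRMT1 inhibitor, PRMT4 inhibitor and DMSO inputs. Only the PRMT1 inhibitor library with 1 ribosome reached into the range of the inputs, and the differences were -2.77, -2.18 and -3.09 (mean -2.68, SE 0.61). SF3B4, a subunit of the U2 snRNP of the spliceosome, was at 0.97 to 10.1 FPKM when bound (median 6.72), against 59.1, 20.3 and 19.0 FPKM, with no overlap. KDM6B, a histone demethylase, had the smallest spread between treatments of the 24, at -2.40, -1.96 and -2.26, although 2 of its libraries with 1 ribosome, at 24.3 and 49.4 FPKM, overlapped the inputs at 57.4, 28.7 and 20.1 FPKM.

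TUT4, which adds uridines to RNA ends, had a mean of -1.90 (SE 0.67), and SRPK3, a kinase of SR splicing proteins, -1.58 (SE 0.59). COX7A1, the heart and muscle form of a cytochrome c oxidase subunit, was at 9.81 to 53.4 FPKM when bound (median 25.6), against 55.0, 87.5 and 55.9 FPKM, with no overlap. CSF1R, the receptor of a macrophage growth factor, had no overlap either, at 0.53 to 19.5 FPKM when bound and 29.6, 26.5 and 21.8 FPKM in the inputs. GOLGA2, a structural protein of the Golgi, averaged -1.59 (SE 0.48), AIFM3 -1.95 (SE 0.64), TMEM191C -1.55 (SE 0.54) and ZNF250, a zinc finger gene, -1.51 (SE 0.58). KEAP1, the adaptor that sends the oxidative stress factor NRF2 to degradation, was at -2.19, -1.24 and -0.98. The median transcript GC content was 60.7% for the 12 lowest genes and 50.0% for the 12 highest, against 54.9% for all genes tested.

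Of the 13 mitochondrially encoded mRNAs 7 lay above the median with the PRMT1 inhibitor, 0 with the PRMT4 inhibitor and 1 in DMSO. Their medians were 0.23 with the PRMT1 inhibitor, -1.31 with the PRMT4 inhibitor and -2.48 in DMSO, and that of the genes' means was -1.26, with 6 below the median in all 3 treatments (46.2%, against 15.6% of all genes) and 0 above. None passed limma's adjusted threshold, and 5 lay lower at an unadjusted p under 0.05, against 3.03% of all genes. Without the DMSO pair the median was -0.32, and with the log2 of the mean over the fractions it was -0.42.

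MT-ND6, a complex I subunit, is the mRNA read from the other strand of the mitochondrial genome. It had the highest mean of the 13, at 1329 FPKM, with MT-CYB next at 564 FPKM. Which strand the fragments listed under MT-ND6 came from was not tested, so its values need not be those of its mRNA. Under the PRMT1 inhibitor MT-ND6 was listed at 26.7, 23.5 and 0 FPKM with 1, 2 and 3 or more ribosomes, against 79.1 FPKM in the input. With the PRMT4 inhibitor MT-ND6 was at 8280, 70.5 and 9.88 FPKM, against 1332 FPKM in the input, and in DMSO at 70.5, 42.2 and 14.9 FPKM, against 5993 FPKM. MT-CYB, of complex III, was at 325, 177 and 38.4 FPKM under the PRMT1 inhibitor, against 69.2 FPKM in its input, at 3703, 252 and 61.8 FPKM under the PRMT4 inhibitor, against 632 FPKM, and at 267, 208 and 86.7 FPKM in DMSO, against 947 FPKM. MT-ND5, also of complex I, was at 253, 165 and 49.2 FPKM under the PRMT1 inhibitor, against 34.4 FPKM, at 2110, 265.1 and 63.7 FPKM under the PRMT4 inhibitor, against 470 FPKM, and at 282, 174 and 50.6 FPKM in DMSO, against 85.3 FPKM. Among the bound libraries all 3 mRNAs were lowest with 3 or more ribosomes in every treatment.

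The library with 1 ribosome under the PRMT4 inhibitor stood apart for these mRNAs, as the plot of summed values shows. The 13 summed to 18754 FPKM there, against 1101 in the PRMT1 inhibitor and 1038 in the DMSO library with 1 ribosome. With 3 or more ribosomes the 3 sums were close, at 264, 345 and 290 FPKM, whereas the inputs were at 373, 4226 and 7678 FPKM. With all 3 libraries with 1 ribosome left out, the median of the genes' means was -1.75.

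**Figure D4:**
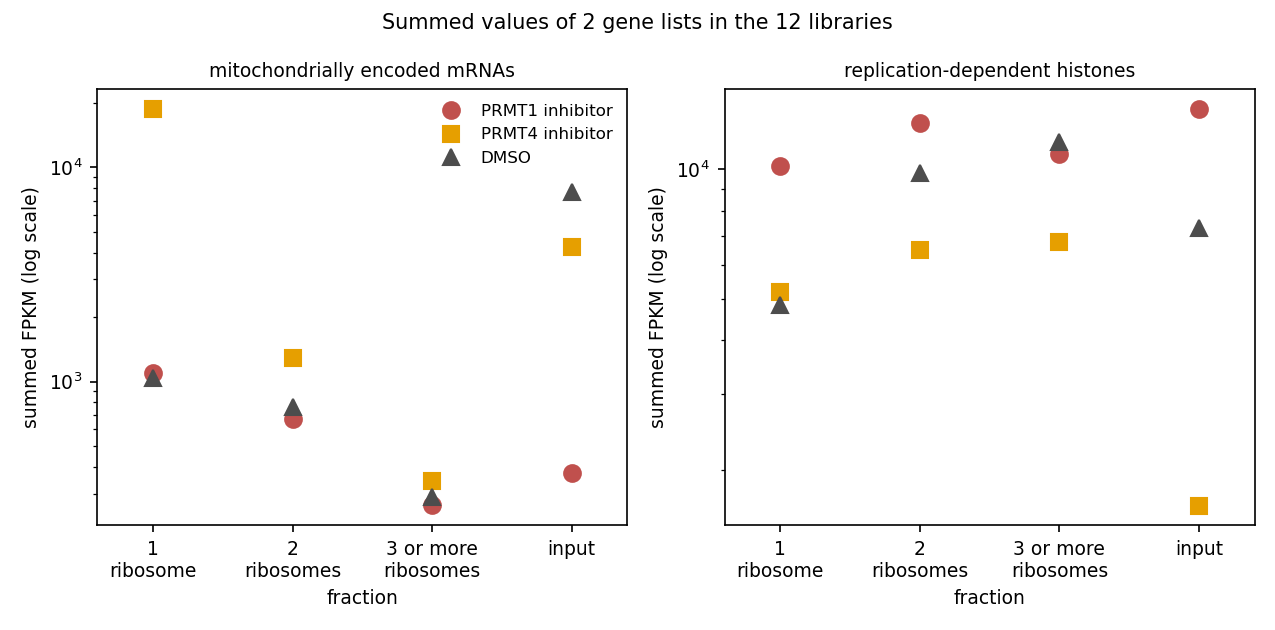
Summed FPKM (vertical axes, log scale) of 13 mitochondrially encoded mRNAs (left) and 36 replication-dependent histone genes (right) in the 12 libraries. The mitochondrial sum peaks at 18754 in the PRMT4 inhibitor library with 1 ribosome and is lowest among inputs with the PRMT1 inhibitor (373); the histone sum of the PRMT4 inhibitor input, 1649, lies below all other libraries.

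Replication-dependent histone mRNAs, which end in a stem-loop and carry no poly(A) tail, lay far above the median with the PRMT4 inhibitor alone. Their medians were 0.09 with the PRMT1 inhibitor, 2.13 with the PRMT4 inhibitor and -0.04 in DMSO, and 9 of 36 lay above the median in all 3 treatments and 2 below (H1-1 and H2AC15), which is 25% and 5.56%, against 13.5% and 15.6% of all genes. No histone gene passed limma's adjusted threshold, and 4 lay higher at an unadjusted p under 0.05, against 3.7% of all genes. The summed FPKM of the PRMT4 inhibitor was 5183, 6500 and 6781 with 1, 2 and 3 or more ribosomes, against 1649 in its input. In DMSO the bound sums were 4835, 9824 and 11573, against 7322 in the input, and with the PRMT1 inhibitor 10183, 12826 and 10850, against 13842. The 3 histone genes of highest level had their highest difference with the PRMT4 inhibitor. H2BC15, which lies opposite H2AC15, was at -0.89 with the PRMT1 inhibitor, 1.21 with the PRMT4 inhibitor and -1.12 in DMSO, and H2BC12 was at 0.51, 2.89 and -0.54. H1-4, a linker histone, was at 0.00, 3.30 and -3.10, the lowest DMSO value of the 36 genes. It was listed at 1440, 307 and 427 FPKM bound against 55.2 FPKM in the input with the PRMT4 inhibitor, and at 316, 478 and 837 FPKM bound against 2286 FPKM in DMSO. Without the PRMT4 inhibitor pair the median of the genes' means was 0.09, against 0.80 with all treatments. Histone genes are near-identical copies, between which counting can move reads.

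Nuclear genes of mitochondria did not follow the mRNAs made inside them. Of 26 mitochondrial ribosomal proteins 5 lay above the median in all 3 treatments (MRPL37, MRPL52, MRPL55, MRPS16 and MRPS26) and 5 below (MRPL20, MRPL23, MRPL40, MRPL48 and MRPL53). That is 19.2% above and 19.2% below, against 13.5% and 15.6% of all genes, and the median of the genes' means was 0.00. MRPL51, opposite NCAPD2, and MRPL20, opposite MRPL20-AS1, averaged -0.22 and -0.21 (SE 0.35 each). Of 35 nuclear-encoded oxidative phosphorylation subunits 7 lay above (20%, against 13.5% of all genes), COX7C and UQCRH among them, and 2 below (5.71%, against 15.6%). Only 4 of the 7 were above 0 in all 12 libraries, and the median of the list was 0.14. The 2 below were NDUFA3, of complex I, with a mean of -1.38, and ATP5MF, of the ATP synthase, at -1.40, -0.19 and -1.41.

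The remaining lists gave small or split differences. Proteasome subunits had 0 of 12 above and 4 below (PSMB1, PSMB4, PSMC5 and PSMD2; 33.3%, against 15.6% of all genes), with medians of 0.21, -0.97 and 0.27 in the PRMT1 inhibitor, PRMT4 inhibitor and DMSO comparisons. PSMA3, of the proteasome core, was at 6.07, 328 and 8.06 FPKM in those 3 inputs and at 37.6 to 171 FPKM in the bound libraries, so its difference was -1.53 with the PRMT4 inhibitor and 3.90 and 2.16 in the others. PSMC5, of the cap that unfolds substrates, which lies opposite FTSJ3, was at -0.84, -1.05 and -1.59. Of 13 glycolytic enzymes 3 lay above (PFKFB2, PKM and PGAM1; 23.1%, against 13.5% of all genes) and 0 below (0%, against 15.6%). The highest was PFKFB2, which makes an activator of phosphofructokinase and lies opposite YOD1: its bound libraries, at 48.2 to 217 FPKM (median 97.6), were all above the inputs at 40.2, 43.9 and 32.1 FPKM. Of 18 ribosome biogenesis factors 1 lay above (RRP7A; 5.56%, against 13.5% of all genes) and 4 below (MRTO4, NOP14, DDX51 and TSR1; 22.2%, against 15.6%). MRTO4 averaged -2.01.

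Of 15 spliceosomal proteins 3 lay above (SNRPG, SNRNP40 and LSM2) and 3 below (SF3B4, LSM7 and SNRPB). That is 20% above and 20% below, against 13.5% and 15.6% of all genes. Among 18 hnRNP and SR proteins HNRNPA1 and HNRNPUL1 lay above (11.1%) and HNRNPH1, HNRNPAB and HNRNPH3 below (16.7%), near the 13.5% and 15.6% of all genes. HNRNPA1, which packages pre-mRNA and is itself made from a TOP mRNA, averaged 1.06. Of 10 heat shock chaperones HSPE1 lay above (10%, against 13.5% of all genes) and HSPA1B and CCT3 below (20%, against 15.6%). Among 16 ER and secretory genes CANX, DDOST, PPIB and SRPRA lay above (25%, against 13.5% of all genes) and HSP90B1 and TRAM1 below (12.5%, against 15.6%).

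Of 14 immediate early and other short-lived mRNAs 1 lay above (HES4) and 4 below (MYC, FOSL1, JUND and JUN), all of them transcription factors. That is 7.14% and 28.6%, against 13.5% and 15.6% of all genes, and the median of the list was -0.01. MYC was at 9.29 to 101 FPKM when bound (median 31.5), against 63.1, 39.8 and 69.5 FPKM in the PRMT1 inhibitor, PRMT4 inhibitor and DMSO inputs, with a mean of -1.08 (SE 0.47). Of 12 DNA replication genes 2 lay above (GINS3 and RPA3; 16.7%, against 13.5% of all genes) and 1 below (8.33%, against 15.6%). The 1 was RRM2, the small subunit of ribonucleotide reductase, which was even across treatments, at -0.98, -1.12 and -1.19, with 26.1 to 183 FPKM when bound and 118, 209 and 98.3 FPKM in the inputs. Of the 5 tested genes of arginine methylation 1 lay above, CLNS1A (20%, against 13.5% of all genes), and 0 below (0%, against 15.6%). CARM1, the target of the PRMT4 inhibitor, had differences of -0.06, 0.26 and -0.02. Of 5 selenoproteins 2 lay above, GPX1 and SELENOH (40%, against 13.5% of all genes), with a list median of 0.59. SELENOH was listed at 0 in all 3 inputs, so it passed the minimum of 10 FPKM through its bound libraries alone. With equal weight of input and bound the selenoprotein median was -0.37. The median of the genes' means was 0.10 for plasma membrane and secreted proteins, 0.15 for the actin and tubulin cytoskeleton, 0.35 for nonsense-mediated decay substrates and -0.37 for cholesterol synthesis.

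The position in the gradient split the lists in a way the input comparison did not. Against input, the median of the large-subunit genes was 0.90, 0.42 and 0.53 with 1, 2 and 3 or more ribosomes under the PRMT1 inhibitor, 1.10, 0.89 and 0.81 under the PRMT4 inhibitor and 0.87, 0.66 and 0.18 in DMSO. Small-subunit genes had 1.01, 0.47 and 0.81, then 1.28, 0.90 and 0.69, then 1.33, 0.82 and 0.69. All 18 medians were above 0, and in each treatment the highest was with 1 ribosome. Of the 24 lists with at least 5 genes tested, the TOP mRNAs were the other list with its highest median at 1 ribosome in every treatment. For 8 lists the highest was at 3 or more ribosomes in every treatment: initiation factors (1.05, 0.73 and 1.22), mitochondrial ribosomal proteins, oxidative phosphorylation subunits, proteasome subunits, glycolytic enzymes, the actin and tubulin cytoskeleton, immediate early genes and cholesterol synthesis. For 13 lists it differed between treatments.

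Transcript GC content went with the difference, in opposite directions between treatments. Over 3977 genes the Spearman correlation of the difference with GC content was -0.46 with the PRMT1 inhibitor, 0.24 with the PRMT4 inhibitor and -0.31 in DMSO. With genes in 5 equal groups by GC content, the median differences were 0.78, -0.41 and 0.70 in the group of lowest GC content, and in the group of highest they were -0.58, 0.22 and -0.38. The level itself correlated with GC content at -0.02 to 0.12 in the 9 bound libraries, against 0.37, -0.10 and 0.26 in the PRMT1 inhibitor, PRMT4 inhibitor and DMSO inputs. The PRMT4 inhibitor input also stood apart from the other inputs: its Spearman correlation over genes was 0.54 with the DMSO input and 0.50 with the PRMT1 inhibitor input, while those inputs correlated at 0.77 with each other. With its own bound libraries the PRMT4 inhibitor input correlated at 0.71 to 0.76, against 0.57 to 0.65 for the DMSO input with the bound libraries of DMSO.

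**Figure D5:**
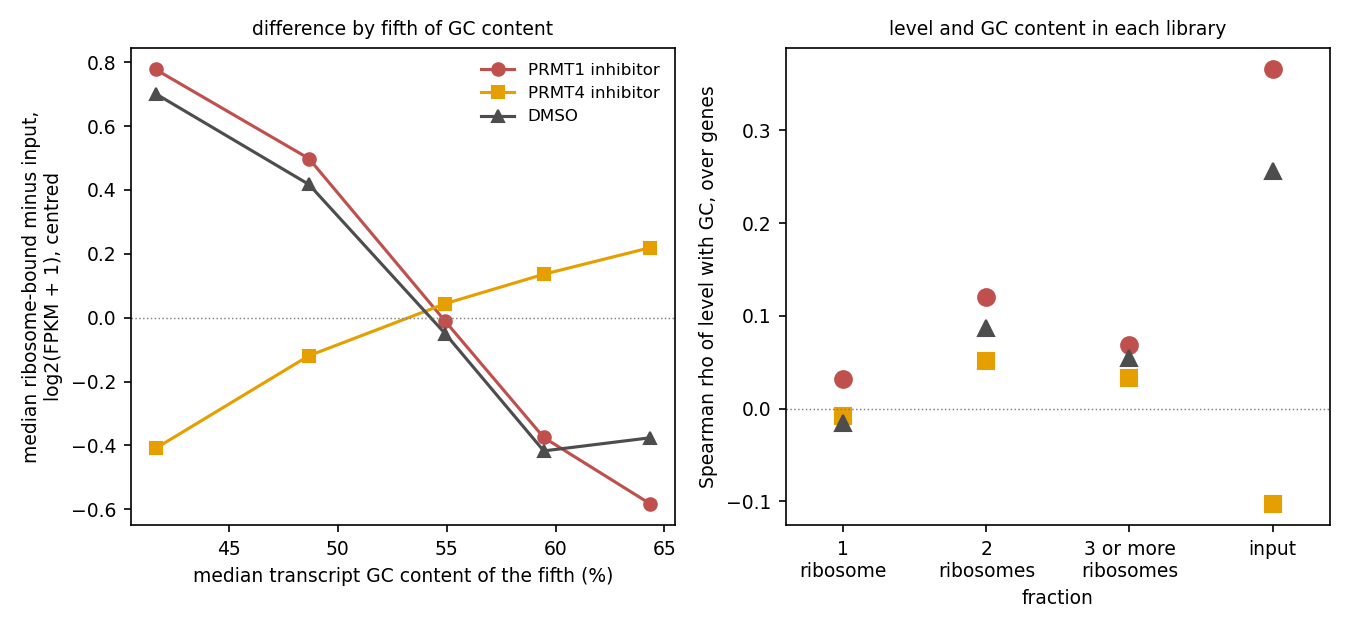
Left, median centred difference (log2(FPKM + 1)) in 5 equal groups of genes by transcript GC content for the 3 treatments; right, Spearman correlation over genes of the level with GC content in each of the 12 libraries. The slope is downward with the PRMT1 inhibitor and in DMSO and upward with the PRMT4 inhibitor, and the inputs (0.37, -0.10 and 0.26) lie outside the range of the 9 bound libraries.

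Genes above the median in all 3 treatments had a median GC content of 52.1% and those below 58.2%, and the ribosomal protein genes 50.3%. Each treatment was also centred within 20 bins of GC content, a step added after the data were seen. The ribosomal protein medians were then 0.71 for the large and 0.82 for the small subunit. Of the 79 genes 39 lay above the median in all 3 treatments and 1 below. These counts stand without a share of all genes, since 13.5% and 15.6% belong to the differences before this step. After it the mitochondrially encoded mRNAs were at -1.57 and the histones at 0.71. No gene passed limma's adjusted test after this step, and the correlation between the PRMT1 inhibitor and DMSO differences was 0.34. Whether GC content has a part in the differences of single genes was not tested. The Spearman correlations of the mean difference with transcript, coding, 3' UTR and 5' UTR length were -0.01, -0.11, 0.10 and -0.03. Single treatments were also weakly correlated, but not all in 1 direction. In the PRMT1 inhibitor, PRMT4 inhibitor and DMSO comparisons transcript length gave 0.05, -0.12 and 0.03, and 3' UTR length 0.15, -0.09 and 0.09.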

How the data were processed

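The deposited table gives FPKM per Ensembl gene, 1 column for each of 12 libraries. Per the submitters' processing notes, the authors used RSEM, STAR 2.5.3a and cutadapt 1.18 with GRCh37, and no source used here gives the strand setting. Per the labels' protocols, lysates were run on 10 to 50% sucrose gradients, RNA was extracted with TRIzol, and a directional NEBNext Ultra II kit was used. The fraction columns R1, R2 and R3 were read as 1, 2 and 3 or more ribosomes. Read counts were not used here, and depth was estimated from the spacing of low FPKM values.

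Differences of log2(FPKM + 1), which understate the change of low genes, were tested with limma 3.58.1 (R 4.3.3), one-sample over the 3 treatments, two-sided, with a mean-variance trend and Benjamini-Hochberg adjustment over 4057 genes. Nothing says that the treatments are separate cultures of equal kind, so p-values measure the spread between these 3 pairs. The pairing comes from the shared treatment label: deviations of bound and input libraries correlated at 0.27, 0.24 and -0.04 for the PRMT1 inhibitor, PRMT4 inhibitor and DMSO. limma was tested on simulated data, Poisson fragments at the estimated depths with the same change in every treatment. The simulation held no differences between inputs beyond depth and sampling, so it cannot show how the test behaves on these libraries. Symbols were matched for 15299 of 15534 IDs, and GENCODE release 29 (GRCh38) gave lengths, GC content and opposite-strand exons, used without coordinates. Promoters are RefSeq's; genes without one, such as RELB, have no window. Python 3.11.15, pandas 2.3.3 and matplotlib 3.10.9 did the rest.

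Named genes are the 12 highest and 12 lowest by mean difference that are at least 1.5-fold from the median in each treatment, above 0 in all 12 libraries, with a symbol and no opposite-strand exon; the rule puts genes past the adjusted test first, and none passed. For each list described up to 3 members with the highest mean FPKM may be named. The members and the 29 gene lists were chosen with earlier results of these data known. Lists of nuclear noncoding RNAs, small RNA host genes and structural RNAs had 0 members tested.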

Additional observations from a re-analysis of the deposited data

Results flagged for a closer look

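The rank correlation of the bound-minus-input difference with transcript GC content was -0.46 with the PRMT1 inhibitor, 0.24 with the PRMT4 inhibitor and -0.31 in DMSO (Spearman, 3977 genes each). It was picked out because the treatments go in opposite directions; the difference between them was not tested.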

How the results depend on the processing

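With limma, 0 genes were called higher and 0 lower under the pseudocounts, minimum levels, scaling, fraction and GC alternatives, and with no trend. Calls appeared without centring (29 higher and 4 lower, among them COX7C, RPS21, RPS3, ODC1, UQCRH and, lower, MT-ND6, SCAND3 and LHB), when genes with opposite-strand exons were left out (1 higher, COX7C) and with no replicate block (1 higher, COX7C). Leaving out a treatment gave 0 to 5 higher and 0 to 1 lower: without the PRMT1 inhibitor H4C1, COX7C and C4orf48 against MT-ND6, without DMSO COX7C, TFDP1, DAB2IP, SFMBT1 and 1 unnamed gene against MT-ND6. These were named after their values were seen, and each gene called without a treatment is at 0 in at least 1 library. Counts of genes on 1 side scale with the number tested or of treatments required. A minimum FPKM of 1 gave 1454 above and 1575 below, and 367 and 391 at 1.5-fold; 50 gave 172 and 203, and 23 and 30; none gave 2118 and 2181, and 521 and 289. Without opposite-strand genes they were 220 and 254, and 60 and 65. Without centring 273 lay below, and 185 and 49 passed 1.5-fold. Leaving out 1 treatment gave 901 (without DMSO), 926 (without the PRMT1 inhibitor) and 1380 (without the PRMT4 inhibitor) above and 901 to 1379 below, and at 1.5-fold 227, 288 and 718 above and 221, 236 and 623 below.

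The large-subunit median was 0.67 with a pseudocount of 5, 0.97 with no minimum, 0.74, 0.93 and 0.75 without 1, 2 and 3 or more ribosomes, 0.71 in GC bins and 0.78 to 0.90 without 1 treatment. Without centring it was 1.16 and that of the small subunit 1.35, while the small subunit was at 0.89 to 1.14 without 1 treatment. Medians without 1 treatment were -1.97 to -0.32 for mitochondrial mRNAs and 0.09 to 1.16 for histones. Of 24 list medians 15 turned sign under at least 1 alternative, and 9 kept it under all that were run, those of both ribosomal subunits, mitochondrial mRNAs and histones among them. Immediate early genes turned to 0.0236 (pseudocount 0.1), 0.0364 (equal weight of input and bound), 0.0087 (no library at 0), 0.31 (no centring), 0.0493 (upper quartile), 0.063 (log2 of the mean), 0.0158 (no 2 ribosomes) and 0.0006 (no ribosomal or mitochondrial genes); oxidative phosphorylation to -0.0174 (pseudocount 5), -0.29 (minimum 50), -0.18 (no library at 0), -0.15 (no 3 or more ribosomes) and -0.0084 (no PRMT4 inhibitor); selenoproteins from 0.59 to -0.37 (equal weight). With a minimum of 50, ER genes went to -0.24, against 0.18 as reported, and DNA replication genes to -0.22, against 0.24; spliceosomal proteins were at -0.13, against 0.12, with equal weight. Other causes were not tested. At about 10 fragments for a gene at the minimum, small differences of single genes were not detectable.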

Other observations

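Genes of the mitochondrial ribosome, whose median over the 3 bound fractions was close to that of all genes, differed along the gradient. With 1, 2 and 3 or more ribosomes their median difference from input (log2(FPKM + 1), 26 genes) was -0.63, -0.11 and 0.52 under the PRMT1 inhibitor, -0.09, -0.08 and 0.71 under the PRMT4 inhibitor and -0.32, -0.27 and 0.44 in DMSO. The highest median stood at 3 or more ribosomes in every treatment, as it did for 8 of the 24 lists compared, these genes included, whereas cytosolic ribosomal protein genes had theirs at 1 ribosome. The 3 fractions of a treatment share 1 input, and no test was made.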
